A study of Mus musculus with 4 samples.

Results

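The pre-mRNA splicing regulators measured here were 39 of the 21839 genes in a table of mouse embryonic fibroblast (MEF) RNA-seq. They were the 4 CDC-like kinases Clk1 to Clk4, 11 SR proteins (genes named Srsf plus a number), 20 heterogeneous nuclear ribonucleoproteins (genes whose name begins with Hnrnp), and Rsrp1, Ogt, Tra2a and Tra2b. The families were taken whole by name, but they were chosen by the coculture values of these same libraries, in which Rsrp1, Ogt and several kinases and SR proteins had stood out. Their coculture values are therefore a description and carry no test. Of the 39 genes, 38 had a mean FPKM (fragments per kilobase of gene length, scaled to the library total) of at least 1 over the 4 libraries, and Srsf12 did not.

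RNA was taken from wild-type MEFs after 48 h in 4 conditions, with 1 library each. These were MEFs cultured alone, MEFs cocultured with bone marrow mesenchymal stem cells (MSCs), and each of these cultures with QNZ. QNZ is an NF-κB inhibitor, and the labels and methods do not state its dose. The paper does not say whether the coculture used for RNA-seq was direct or across a porous insert. The study made the comparison without QNZ to look for transcripts that differ when fibroblasts are cocultured with MSCs. There are no replicates, so the spread between cultures is unknown, and coculture cannot be told apart from any other difference between libraries.

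SR proteins carry RNA recognition motifs and a tail rich in arginine and serine, and they bind exonic enhancers and help recruit the spliceosome. Kinases of the CLK and SRPK families phosphorylate that tail, which sets where in the cell SR proteins lie and how active they are. Many hnRNPs act in the opposite direction on the same exons, and the transcripts of many SR proteins, hnRNPs, Clk1, Clk4 and Ogt are known to hold poison exons or introns that are spliced late, through which the proteins tune their own amounts. Values per gene, as used here, cannot separate such isoforms.

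Reads assigned to genes ranged from 13153696 to 15778488 per library, and the 39 genes took 0.610% of them in MEFs alone, 0.762% in coculture, 0.614% alone with QNZ and 0.762% in coculture with QNZ. The share of mitochondrial reads was 0.291%, 0.738%, 0.580% and 1.49% in the same order. Of 10 fibroblast markers, 9 were present and S100a4 was at or near 0 in every library. The summed FPKM of 5 haematopoietic and macrophage markers was 1.80 alone, 6.32 in coculture, 3.61 alone with QNZ and 5.74 in coculture with QNZ. Most of it was Cd68, which was higher in coculture without QNZ by 1.32 on the log2(FPKM + 1) scale, and Ptprc was near 0. Of 6 bone marrow stromal markers, Lepr and Nt5e stayed under an FPKM of 1, while the others were present in every library. The summed FPKM of the 6 was 505 alone and 378 in coculture without QNZ, and 186 and 258 with QNZ. Ly6a went down in the pair without QNZ, from 446 to 227, and Cxcl12 went up, from 26.2 to 100.4. The parts of mitochondrial reads and of RNA from other cells in the results were not tested. In bulk RNA, fewer cells of a type and less RNA per cell cannot be told apart.

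In MEFs cocultured with MSCs, transcripts of the CLK kinases Clk1, Clk2 and Clk4, of Ogt and Rsrp1, and of the SR proteins Srsf5, Srsf10 and Srsf11 were higher than in MEFs alone. Hnrnpab, the hnRNP with the highest FPKM in MEFs alone, was lower. That rank rests on the gene length used, and by reads Hnrnpu came first there, with 8529 against 7350 for Hnrnpab. A gene was counted where log2(FPKM + 1) differed by at least 1 between libraries. By this size 11 of the 39 genes were higher, against 24.3% of the 10610 genes with a mean FPKM of at least 1, and 1 was lower, against 11.7%. The share of these regulators that rose was thus close to that of all genes, and the median difference of the 38 expressed regulators was 0.28, beside 0.31 over all 10610. Values are also given after median-of-ratios scaling, in which each library is divided by the median of its genes' ratios to their geometric mean over libraries, and as TPM, in which each library's FPKM are rescaled to the same total. The 11 counted rises differed widely in size, from 1.10 to 3.73. The genes closest to the limit on its outer side were Hnrnpa3 at 0.99 and Srsf4 at 0.97, and the closest inside it were Tra2a at 1.10 and Hnrnph3 at 1.16.

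Rsrp1 encodes a small arginine- and serine-rich protein whose function is little known, and it had the largest rise of the 39 genes. It had an FPKM of 6.98 in MEFs alone, 105 in coculture, 7.38 alone with QNZ and 108 in coculture with QNZ. Both cocultured libraries were far above both libraries of MEFs alone, and QNZ hardly moved either level. The coculture difference was 3.73 without QNZ and 3.70 with it, on the log2(FPKM + 1) scale. The reads behind it were 360 and 5237 without QNZ, a ratio of 15.1 in reads scaled to the library totals, with an exact 95% interval of 13.5 to 16.8. Such intervals cover counting error only, and PCR reads without molecular identifiers are not independent molecules.

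Ogt encodes the transferase that places O-linked N-acetylglucosamine on nuclear and cytoplasmic proteins, many splicing factors among them. Its FPKM was 5.45 in MEFs alone, 73.5 in coculture, 8.93 alone with QNZ and 80.9 in coculture with QNZ. The cocultured libraries were again the high ones, and of the libraries of MEFs alone the one with QNZ was the higher. The coculture differences were 3.53 and 3.05, with ratios of 13.5 (12.5 to 14.6) and 9.07 (8.52 to 9.66). With QNZ in MEFs alone Ogt was higher by 0.62, the largest QNZ difference of any of the 38 expressed regulators, and in coculture by 0.14. Oga, which encodes the enzyme that removes the same sugar, had an FPKM of 8.03, 23.4, 14.9 and 25.4 in MEFs alone, coculture, MEFs alone with QNZ and coculture with QNZ. It rose by 1.43 in coculture without QNZ and differed by 0.74 with it, and the value without QNZ fell short of the size counted after median-of-ratios scaling, at 0.94, and with the trend on gene length removed, at 0.59.

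Of the 4 CLK kinases, Clk1, Clk2 and Clk4 were counted as higher in coculture, both without and with QNZ, and Clk3 was not. The shares of all genes counted as higher were 24.3% without QNZ and 14.4% with it. Clk1, the founding member of the family, had an FPKM of 1.08 alone, 13.0 in coculture, 1.51 alone with QNZ and 12.2 in coculture with QNZ. Clk4, its closest relative, had an FPKM of 1.43, 9.43, 1.65 and 8.64 in the same order. In both genes the cocultured libraries lay several times above the others. The coculture differences of Clk1 were 2.75 without QNZ and 2.39 with it, and the read ratios were 12.0 (10.1 to 14.4) and 8.06 (6.92 to 9.42). Those of Clk4 were 2.10 and 1.86, with ratios of 6.58 (5.46 to 7.99) and 5.24 (4.38 to 6.29). The reads behind the low values were 135 for Clk1 and 128 for Clk4 in MEFs alone, which sets the width of these intervals.

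Clk2, also an SR protein kinase and a target of insulin signalling in liver, had an FPKM of 2.69 alone, 9.43 in coculture, 3.50 alone with QNZ and 11.05 in coculture with QNZ. Clk3 had an FPKM of 5.98, 7.39, 6.58 and 7.58 in the same order. Clk2 followed the pattern of Clk1 and Clk4 at a smaller size, while the 4 values of Clk3 lay close together. Clk3 overlaps Edc3 on the other strand, and whether reads were counted by strand is not known, so its values are uncertain. The coculture differences were 1.497 and 1.42 for Clk2, and 0.27 and 0.18 for Clk3, the last 2 with ratios of 1.24 (1.12 to 1.36) and 1.15 (1.05 to 1.27). The sign of the Clk3 difference depended on the scaling, being -0.20 after median-of-ratios scaling and 0.79 as TPM. As a result the order of the family changed. In MEFs alone Clk3 held 53.4% of the summed FPKM of the 4 kinases and Clk1 9.64%, whereas in coculture Clk3 held 18.9% and Clk1 33.0%. The summed FPKM of the family was 11.2 alone and 39.2 in coculture, and 13.2 and 39.5 with QNZ, and the sum was higher in coculture as TPM too, at 32.0 and 161 without QNZ. The ratio of Clk1 to Clk3, in FPKM, was 0.180 alone, 1.75 in coculture, 0.230 alone with QNZ and 1.61 in coculture with QNZ.

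**Figure D1:**
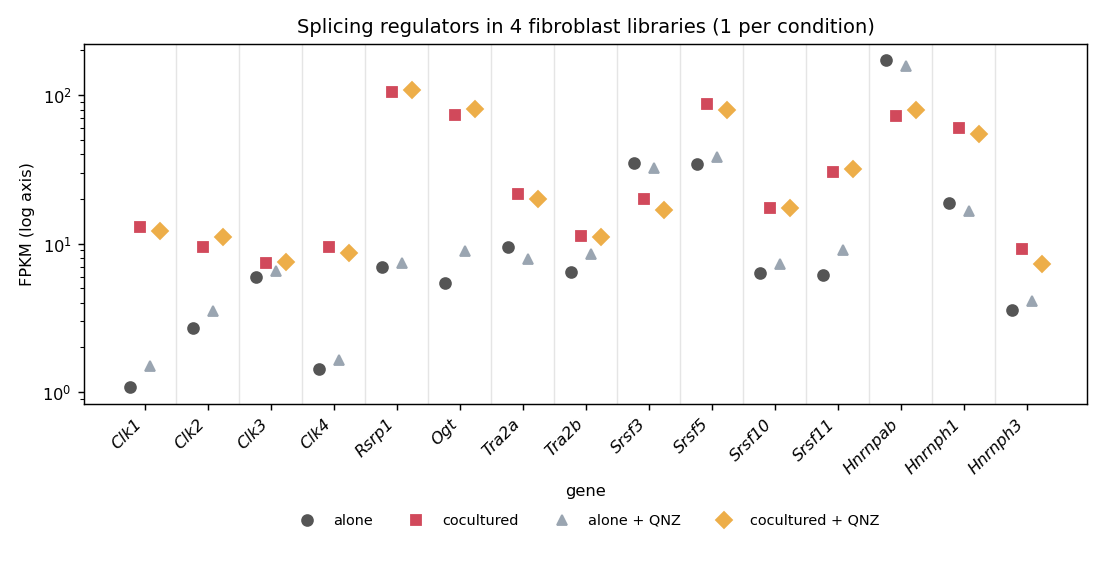
Levels of 15 splicing regulators in the 4 libraries, as FPKM on a log axis; each symbol is 1 library, with no replicates. Rsrp1, Ogt, Clk1, Clk4 and Srsf11 are high in both cocultured libraries, from 105 for Rsrp1 and 73.5 for Ogt without QNZ, while Clk3 lies between 5.98 and 7.58 throughout and Hnrnpab falls from 171 to 72.2.

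The 250 bases before the start annotated in RefSeq are shown for several of these genes. They were picked because they moved together in coculture, with Clk3 as the kinase of the family that did not. Sequences are from RefSeq, build GRCm38.p6, written 5′ to 3′ on the gene's strand, and capitals mark TGACG, the core of the cAMP response element, on either strand (CGTCA on the other). They lie at chr4:134923375-134923624 (plus strand), chr11:51262864-51263113 (plus), chr3:89164545-89164794 (plus), chr9:57765115-57765364 (minus) and chrX:101639801-101640050 (plus). For Ogt the table holds 2 starts and the first is shown. GENCODE M21, another annotation, places some starts elsewhere. It starts Clk4 at 51261730 and, on the minus strand, Clk3 at 57765860, so both windows lie inside those genes. It starts Rsrp1 at 134923592, inside the window shown.
Rsrp1: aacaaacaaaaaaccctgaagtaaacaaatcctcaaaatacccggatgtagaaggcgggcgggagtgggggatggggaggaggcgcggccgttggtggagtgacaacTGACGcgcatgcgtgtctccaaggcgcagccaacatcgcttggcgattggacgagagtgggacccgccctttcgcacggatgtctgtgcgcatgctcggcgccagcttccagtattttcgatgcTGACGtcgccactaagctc
Clk4: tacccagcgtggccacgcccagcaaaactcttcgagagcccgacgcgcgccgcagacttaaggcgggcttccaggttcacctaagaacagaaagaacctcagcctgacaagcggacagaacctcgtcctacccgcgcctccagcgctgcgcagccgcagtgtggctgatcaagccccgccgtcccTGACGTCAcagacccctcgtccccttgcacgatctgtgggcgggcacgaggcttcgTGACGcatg
Clk2: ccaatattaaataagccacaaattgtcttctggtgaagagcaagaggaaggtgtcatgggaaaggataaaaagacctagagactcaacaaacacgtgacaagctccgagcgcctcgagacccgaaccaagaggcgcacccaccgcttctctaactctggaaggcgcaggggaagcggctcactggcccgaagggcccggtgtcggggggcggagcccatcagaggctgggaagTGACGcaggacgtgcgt
Clk3: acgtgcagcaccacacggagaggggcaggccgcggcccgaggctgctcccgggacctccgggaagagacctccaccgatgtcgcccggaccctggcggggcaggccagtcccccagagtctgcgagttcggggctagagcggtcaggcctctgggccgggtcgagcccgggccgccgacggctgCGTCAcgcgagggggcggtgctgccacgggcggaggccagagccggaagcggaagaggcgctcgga
Ogt: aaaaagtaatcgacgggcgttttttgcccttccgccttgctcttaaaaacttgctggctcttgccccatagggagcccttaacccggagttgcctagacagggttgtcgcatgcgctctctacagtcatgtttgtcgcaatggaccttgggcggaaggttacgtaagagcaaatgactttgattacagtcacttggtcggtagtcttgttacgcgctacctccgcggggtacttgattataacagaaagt

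The window of Clk4 held 3 matches to TGACG, a pair of which overlap as the palindrome TGACGTCA, that of Rsrp1 held 2, those of Clk2 and Clk3 held 1 each, and that of Ogt held 0. Over the 36 regulators matched to a promoter, 21 held TGACG on either strand, and of all 27025 promoters 17.9% did. Of the 10 counted as higher in coculture that had a sequence, 8 held it. The rest of the 21 were regulators not counted as higher, Clk3 among them. The 27025 promoters were not limited to genes expressed here. The GC box GGGCGG was in 30 of the 36 windows and in 32.9% of all, the CCAAT box in 18 and in 34.5%, the ETS core CGGAAG in 12 and in 13.8%, and the hypoxia core ACGTG in 11 and in 16.6%. The NF-κB core GGANTTTCC was in 0 of the 36 windows and in 1.05% of all promoters. Of the same 10 counted as higher, 10 held the GC box, 5 the CCAAT box and 3 the ETS core. The hypoxia core was in 1 of them and the NF-κB core in 0, so TGACG was not the motif most often found among them. All motifs were searched on both strands, and TGACG and ACGTG can share bases. A match is a run of letters and not a bound site, and no match says only that these letters are not in this window.

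Tra2a and Tra2b are the mammalian homologues of the fly splicing factor transformer-2 and bind exonic enhancers rich in GAA. Tra2a had an FPKM of 9.52 alone, 21.5 in coculture, 7.83 alone with QNZ and 19.9 in coculture with QNZ. Tra2b had an FPKM of 6.44, 11.3, 8.49 and 11.01 in the same order. Both were higher in each cocultured library than in its partner without MSCs, but only Tra2a reached the size counted. The differences were 1.10 and 1.24 for Tra2a, and 0.72 and 0.34 for Tra2b. The sign for Tra2b turned with the trend on gene length removed, to -0.18 and -0.28, and with length and GC trends removed, to -0.60 and -0.67. Their ratio, Tra2a over Tra2b in FPKM, was 1.48 alone, 1.91 in coculture, 0.922 alone with QNZ and 1.80 in coculture with QNZ.

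The SR proteins divided. Of the 11, Srsf5, Srsf10 and Srsf11 were counted as higher in coculture in both pairs, and 0 as lower. Of all genes 24.3% were higher and 11.7% lower without QNZ, and 14.4% and 9.25% with it. The median of the 10 expressed members was 0.22 without QNZ and 0.20 with it. After median-of-ratios scaling 1 was higher and 3 were lower without QNZ, with a median of -0.29, and as TPM there were 5 higher, 0 lower and a median of 0.74. All genes moved with the scaling too, with 13.3% higher and 21.8% lower after median-of-ratios scaling and 44.9% and 5.87% as TPM. Srsf11, which binds the U2AF complex and is known for its part in neuronal microexons, had an FPKM of 6.19 alone, 30.3 in coculture, 9.10 alone with QNZ and 31.8 in coculture with QNZ. Its cocultured libraries were well above the others, and among the libraries without MSCs the one with QNZ was higher. The coculture differences were 2.12 and 1.70, with ratios of 4.88 (4.53 to 5.28) and 3.49 (3.27 to 3.73).

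Srsf10, known as a splicing repressor when dephosphorylated in mitosis and heat shock, had an FPKM of 6.32, 17.3, 7.30 and 17.2 in MEFs alone, coculture, MEFs alone with QNZ and coculture with QNZ. Srsf5, a classical SR protein, had an FPKM of 34.6, 87.7, 38.4 and 78.9 in that order. Srsf5 thus had the highest FPKM of the SR family in both cocultured libraries. The differences were 1.32 and 1.14 for Srsf10 and 1.32 and 1.02 for Srsf5, the last just inside the size counted. After median-of-ratios scaling neither was counted without QNZ, at 0.84 for Srsf10 and 0.80 for Srsf5.

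Other SR proteins had lower values in coculture, but fell short of that size. Srsf3, the smallest SR protein, which also serves as an adaptor for mRNA export, had an FPKM of 34.9 alone, 20.1 in coculture, 32.6 alone with QNZ and 16.8 in coculture with QNZ. Srsf7, an export adaptor as well, had an FPKM of 32.2, 21.2, 25.4 and 22.5. With an FPKM of 63.7, 36.3, 52.3 and 36.6, Srsf9 had the highest FPKM of the SR family in both libraries of MEFs alone. By reads Srsf3 came first in both, with 4252 against 1623 for Srsf9 without QNZ and 4057 against 1363 with it. In Srsf3, Srsf7 and Srsf9 the cocultured libraries were the low ones, and for Srsf7 the gap was narrow with QNZ. The differences without and with QNZ were -0.77 and -0.91 for Srsf3, -0.58 and -0.17 for Srsf7, and -0.79 and -0.50 for Srsf9. The sign of all these values without QNZ was negative under median-of-ratios scaling and as TPM too, at -1.28 and -0.28 for Srsf3, -1.10 and -0.09 for Srsf7, and -1.32 and -0.29 for Srsf9. With the trend on gene length removed, Srsf9 went to -0.19 without QNZ and to 0.06 with it. On that scale Srsf3 was at -1.55 and -1.43, and Srsf7 at -0.66 and -0.15. The ratio of Srsf5 to Srsf3, in FPKM, was 0.989 alone, 4.36 in coculture, 1.18 alone with QNZ and 4.70 in coculture with QNZ.

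Srsf1, Srsf2, Srsf4 and Srsf6 had coculture differences between 0.03 and 0.97 without QNZ and between 0.08 and 0.60 with it. Srsf12, which antagonises other SR proteins in splicing assays, was hardly expressed, with 9 reads alone, 33 in coculture, 33 alone with QNZ and 52 in coculture with QNZ. Its FPKM was 0.186, 0.705, 0.664 and 1.26, the lowest value in MEFs alone and the highest in the library that had both MSCs and QNZ. Its ratio without QNZ was 3.80 with an interval of 1.78 to 9.03, so its size is poorly known. The summed FPKM of the SR family was 250 alone and 298 in coculture, and the sums as TPM were 716 and 1222. Srsf5 went from 13.8% to 29.4% of the sum and Srsf11 from 2.48% to 10.1%, while Srsf9 went from 25.5% to 12.2% and Srsf3 from 14.0% to 6.74%. With QNZ the shares were 16.1% and 27.4% for Srsf5, 3.82% and 11.04% for Srsf11, 21.9% and 12.7% for Srsf9, and 13.7% and 5.83% for Srsf3. The rank of genes by such shares depends on the gene length used for FPKM.

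**Figure D2:**
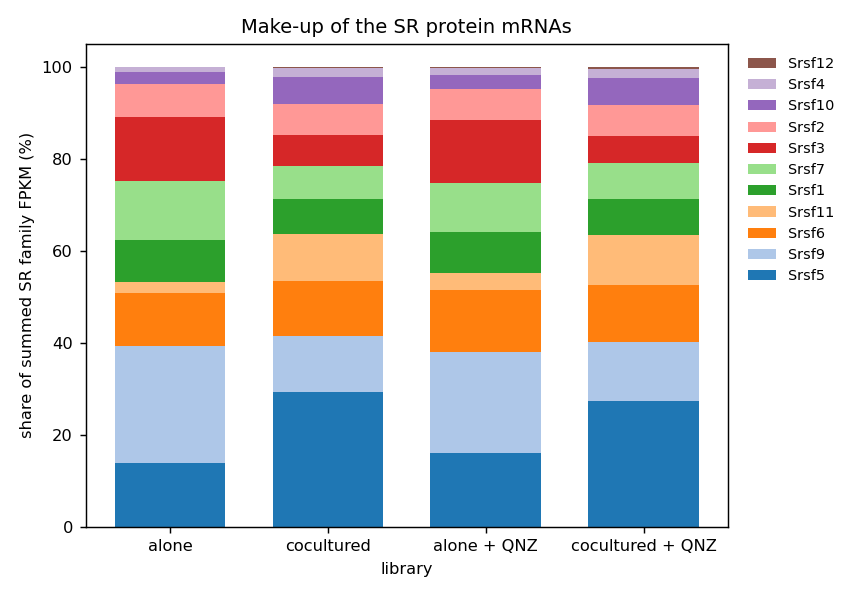
Make-up of the SR protein mRNAs in each library, as each gene's share of the summed FPKM of the 11 Srsf genes (vertical axis, %); each bar is 1 library. Srsf5 takes 13.8% of the sum in MEFs alone and 29.4% in coculture, and Srsf9 25.5% and 12.2%.

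Of the 20 hnRNPs, Hnrnph1 and Hnrnph3 were counted as higher in coculture without QNZ and Hnrnpab as lower. These 2 rises and 1 fall stood against 24.3% and 11.7% of all genes, and the median of the 20 hnRNPs was 0.12. Hnrnph1 and Hnrnph3 belong to the group of hnRNPs that bind runs of G. Hnrnph1 had an FPKM of 18.8 alone, 60.2 in coculture, 16.7 alone with QNZ and 55.1 in coculture with QNZ. Hnrnph3 had an FPKM of 3.58, 9.26, 4.12 and 7.31. For both genes the cocultured libraries were above the others, with a wider gap for Hnrnph1. The differences were 1.63 and 1.67 for Hnrnph1, and 1.16 and 0.70 for Hnrnph3, so that Hnrnph3 was not counted with QNZ. Hnrnph3 overlaps Rufy2 on the other strand, and since no source used here tells whether reads were counted by strand, its value is uncertain.

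Their relatives Hnrnph2 and Hnrnpf, which bind the same kind of sequence, did not share the rise. Hnrnph2 had an FPKM of 23.4, 19.1, 23.7 and 22.0, and Hnrnpf 74.5, 59.6, 98.8 and 63.5. All of the cocultured values were below those of MEFs alone, by 0.28 and 0.11 for Hnrnph2 and by 0.32 and 0.63 for Hnrnpf in log2 units, with a sign that flipped to 0.22 and 0.20 without QNZ when FPKM were rescaled to TPM. The ratio of Hnrnph1 to Hnrnph2, in FPKM, was 0.802 alone, 3.15 in coculture, 0.701 alone with QNZ and 2.51 in coculture with QNZ. Hnrnpf was higher with QNZ in MEFs alone by 0.40, the largest QNZ difference of the hnRNPs there.

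Hnrnpab, which binds RNA and also CArG box DNA, had an FPKM of 171 alone, 72.2 in coculture, 157 alone with QNZ and 78.9 in coculture with QNZ. The cocultured libraries were the low ones in both pairs. The differences were -1.24 and -0.98, the first counted and the second just short of it, with ratios of 0.421 (0.404 to 0.440) and 0.503 (0.481 to 0.525). The fall was -1.76 after median-of-ratios scaling and -0.73 as TPM. Hnrnpab overlaps Phykpl on the other strand.

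Hnrnpa1, which binds exonic silencers and often opposes SR proteins, had an FPKM of 162, 124, 143 and 97.5 in MEFs alone, coculture, MEFs alone with QNZ and coculture with QNZ. Hnrnpa0 had an FPKM of 129, 124, 125 and 119 in the same order, and Hnrnpa2b1, which binds trafficking signals in neuronal mRNAs, 77.7, 71.6, 66.2 and 64.8. Hnrnpa0 varied least of these, and Hnrnpa1 was lowest where MSCs and QNZ were combined. The coculture differences of Hnrnpa1 were -0.38 and -0.55, and its value without QNZ changed sign as TPM, to 0.14. Hnrnpa3 had an FPKM of 6.42, 13.8, 6.19 and 15.4 and differences of 0.99 and 1.19, counted only in the pair with QNZ. Reads of Hnrnpa1, Hnrnpa3 and Srsf3 may be shared with processed pseudogenes, and no source used here tells how the counting split them. The other 11 hnRNPs had coculture differences between -0.73 for Hnrnpc and 0.69 for Hnrnpll without QNZ. Over the family the summed FPKM was 1014 alone and 907 in coculture, and 1003 and 886 with QNZ, whereas the sums as TPM were 2903 and 3716, and 3124 and 3611.

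With QNZ in both cultures, 11 of the 39 genes were higher in coculture, against 14.4% of the 10610 genes, and 0 were lower, against 9.25%. The genes counted were Rsrp1, Ogt, Clk1, Clk4, Srsf11, Hnrnph1, Clk2, Tra2a, Hnrnpa3, Srsf10 and Srsf5. The median of the expressed regulators was 0.30 and that of all genes 0.15. This pair of libraries is a separate comparison of cultures with and without MSCs, so the values stand beside those without QNZ, again as 1 library each.

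QNZ itself moved none of the 39 genes by the size counted. In MEFs alone 0 were higher and 0 lower, against 1.16% and 1.56% of all genes, with differences of the 38 expressed genes from -0.33 for Srsf7 to 0.62 for Ogt. In coculture 0 were higher and 0 lower, against 0.311% and 0.745%, with differences from -0.35 for Hnrnpa1 to 0.21 for Clk2. After Ogt, the largest values of expressed genes in MEFs alone were 0.49 for Srsf11 and 0.40 for Hnrnpf. With a share of all genes this low, a count of 0 among 39 is not a result about these genes. The QNZ and coculture comparisons use the same 4 libraries and are not independent.

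**Figure D3:**
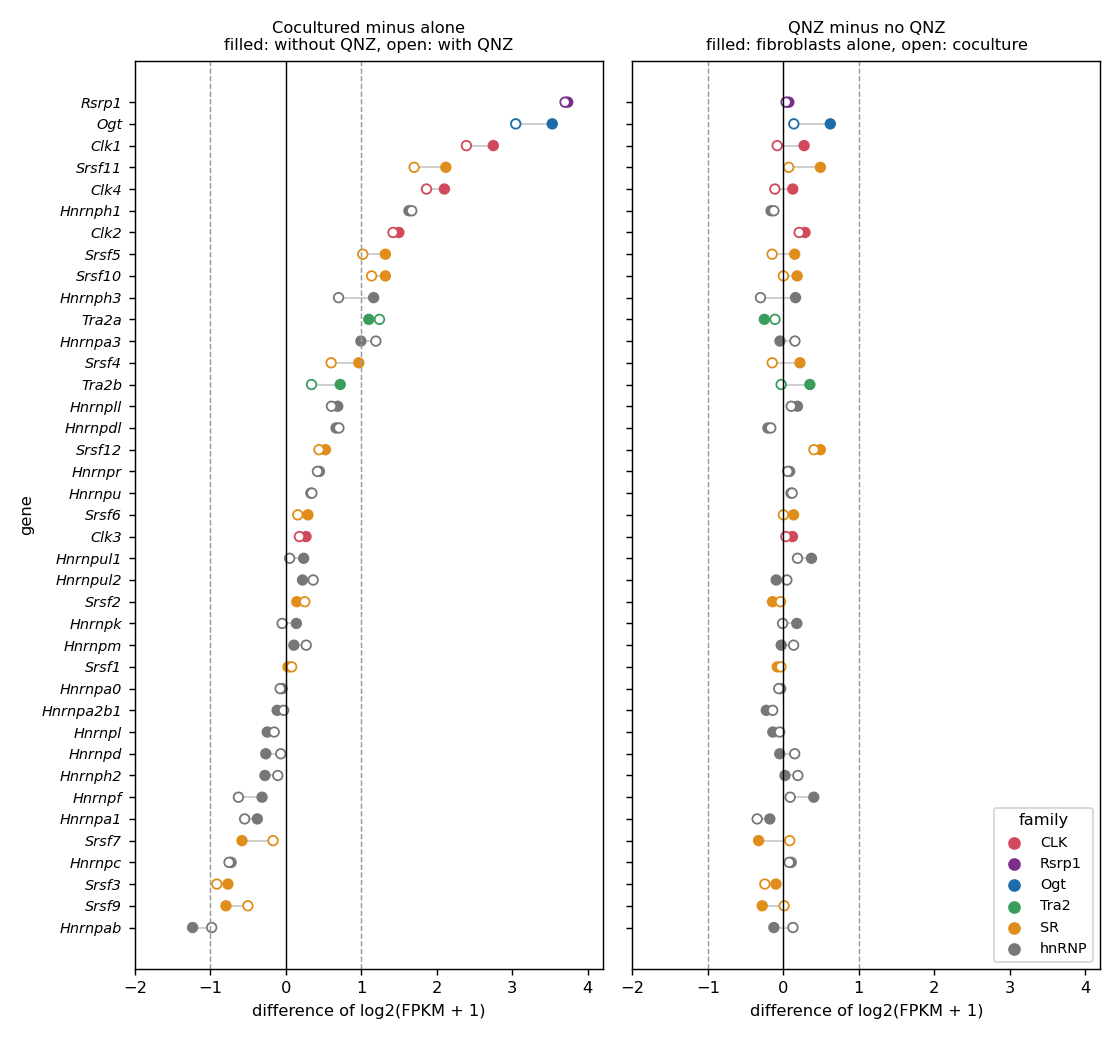
Differences of log2(FPKM + 1) for all 39 genes, ordered by the coculture difference without QNZ; the left panel shows cocultured minus alone (filled without QNZ, open with QNZ), the right panel QNZ minus no QNZ (filled in MEFs alone, open in coculture), and dashed lines mark a difference of 1 either way. Coculture differences reach 3.73 for Rsrp1 and -1.24 for Hnrnpab, whereas all QNZ differences lie between -0.35 and 0.62.

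Gene length moved with the coculture difference over the whole table, which bears on these genes because their lengths differ. With the 10610 genes in 10 groups by length, the median coculture difference without QNZ went from -0.84 in the shortest group to 1.18 in the longest. The 11 regulators counted as higher had lengths of 3151 to 8446 bases with a median of 5842, and the 27 not counted had a median of 5710. In MEFs alone the median FPKM was 6.19 for the 11 and 23.6 for the 27. The level in MEFs alone enters the difference by which these genes were grouped, so this gap is not a separate result. Rsrp1, 3349 bases long, lay in the group with a median of 0.08, and Ogt and Clk1, 8045 and 8132 bases, in the group with a median of 0.85. Clk3, 8450 bases, shared that group with Ogt and Clk1, and so did Srsf3, 7899 bases.

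With the trend of the difference on length removed, Rsrp1 kept a difference of 3.71, Ogt 2.73, Clk1 1.94, Clk4 1.56, Srsf11 1.28, Hnrnph3 1.19, Srsf5 1.14, Hnrnph1 1.09 and Clk2 1.03. Srsf10 and Tra2a went to 0.63 and 0.42 and were no longer counted. Srsf3 at -1.55, Hnrnpab at -1.09 and Hnrnpr at -1.02 were the 3 genes counted as lower on that scale, and Clk3 was at -0.57. These 9 rises and 3 falls stood against 11.6% and 11.1% of all genes on that scale. The median of the expressed regulators became -0.22, beside 0.02 over all genes. The length in the table equals the union of all annotated exons in GENCODE M21 for 39 of the 39 genes. For Clk1, 77.9% of that length lies outside the exons of its coding transcripts, for Srsf11 60.6%, for Clk4 62.2%, for Rsrp1 47.8% and for Ogt 33.0%. Genes that were not counted had such shares as well, with 58.4% for Clk3, 66.9% for Srsf3 and 73.3% for Hnrnpll, and Srsf10, which was counted, had 16.6%. These genes were picked after their values were seen, and whether such length bears on the differences was not tested. The median was 33.0% over the 39 genes and 15.7% over expressed protein-coding genes. Whether reads were counted over all annotated exons is not stated in the sources used here. If so, a read in an intron that some annotated transcript retains counts toward the gene.

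**Figure D4:**
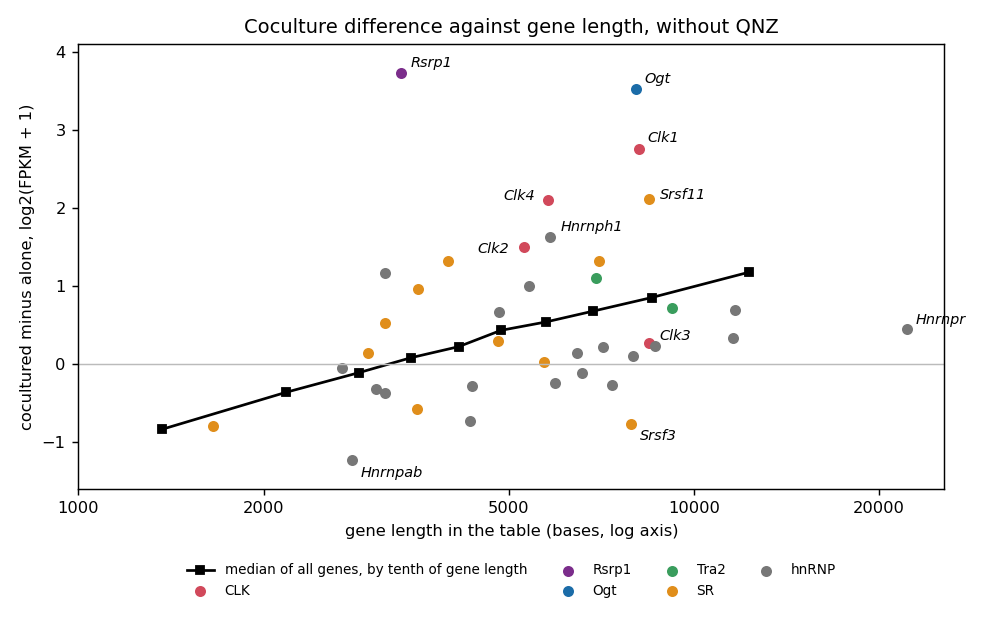
Coculture difference of log2(FPKM + 1) without QNZ (vertical axis) against gene length in bases (log axis) for the 39 genes, coloured by family; black squares are medians of the 10610 genes with a mean FPKM of at least 1 in 10 groups by length. The medians go from -0.84 to 1.18, Rsrp1 and Ogt lie far above them at 3.73 and 3.53, and Srsf3 and Clk3, at -0.77 and 0.27, lie below the genes of their length.

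Annotated retained introns were common among these genes. At least 1 retained-intron transcript was listed for 30 of the 38 expressed regulators, 78.9%, and for 60.4% of the expressed protein-coding genes. The longest lists were those of Hnrnpk with 13 such transcripts and Srsf11 with 11, and Clk1 and Clk4 had 7 each. Of the 30 regulators with such a transcript 9 were counted as higher in coculture without QNZ, and of the 8 without 2 were. Among expressed protein-coding genes the shares were 24.8% with such a transcript and 23.6% without. The 30 regulators with such a transcript had a median coculture difference of 0.39 and the 8 without -0.30, at median lengths of 6525 and 3100 bases, and with the length trend removed the medians were -0.29 and -0.22. Clk3 lists 4 retained-intron transcripts and Srsf3 also 4, while Rsrp1 lists 1 and Hnrnph1 0. How many reads came from introns was not measured.

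The regulators' partners were described by 6 lists chosen with earlier results of these data known. Among 8 other SR protein kinases, 4 rose in coculture without QNZ and 0 fell, against the 24.3% and 11.7% of all genes. Prpf4b, a kinase needed to assemble the spliceosome, rose by 2.17, from an FPKM of 2.78 to 16.1, and Dyrk2 rose by 1.95, from 3.18 to 15.2. Srpk3 was at or near 0 in every library. Among 20 SR-related proteins, 13 rose and 0 fell, with a median of 1.48. They included Nktr, a cyclophilin with an arginine- and serine-rich tail, at 1.10 in MEFs alone and 11.8 in coculture as FPKM, and Ccnl1, a cyclin partner of the splicing kinase Cdk11, with 1.93 and 16.7.

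Of 36 core snRNP and splice site proteins, 13 fell and 1 rose, against 11.7% and 24.3% of all genes, and 22 were not counted. The median was -0.80. After median-of-ratios scaling 22 were lower and 1 higher, and as TPM 6 were lower and 3 higher, with a median of -0.32. Snrpd2, a subunit of the Sm ring, went from 112 to 17.7 as FPKM, and Sf3b5, the smallest SF3b subunit, from 37.9 to 7.74. Sf3b1, the SF3b subunit at the branch point, was the gene that rose, from 10.98 to 33.2, a difference of 1.51 that became 0.45 with the length trend removed. Of 37 other splicing regulators, 14 rose and 2 fell, against the same shares of all genes. Only 29 of the 37 had a mean FPKM of at least 1, the limit for those shares. Rbfox1, which rose by 1.19 at a mean FPKM of 0.81, was under it. Rbm39, a U2AF-related factor, and Mbnl2, of the muscleblind family, rose by 2.36 and 2.24, whereas Raly and Khdrbs3 fell by 1.32 and 1.20. Of 10 factors of nonsense-mediated decay, which degrades transcripts with poison exons, 4 rose and 0 fell, against those shares too, led by the kinase Smg1 at 2.49 and by Upf2 at 1.72. With the length trend removed Smg1 was at 0.98, short of the size counted, and Upf2 at 1.23.

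With the length trend removed, 2 of the 8 kinases, 7 of the 20 SR-related proteins, 4 of the 37 other regulators and 2 of the 10 decay factors were counted as higher, and 10 of the 36 core proteins as lower, against 11.6% of all genes higher and 11.1% lower. On that scale the medians were 0.50 for the kinases, 0.53 for the SR-related proteins, -0.02 for the other regulators, 0.21 for the decay factors and -0.84 for the core proteins. With length and GC trends removed, the SR-related proteins had 3 higher, 1 lower and a median of 0.36, and the other regulators had 3 higher, 5 lower and a median of -0.03, against 9.95% and 11.2% of all genes. Where both cultures had QNZ, the counts were 3 kinases, 11 SR-related proteins, 12 other regulators and 3 decay factors higher, against 14.4% of all genes, and 15 core proteins lower, against 9.25%. QNZ moved 0 genes of these lists by the size counted in either culture.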

How the data were processed

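RNA was taken from MEFs after 48 h in 4 conditions, 1 library each, grouped by the sample labels. Libraries were stranded (dUTP). The authors aligned to mm10 (STAR 2.5.4b), and FPKM are credited to Cuffnorm (Cufflinks 2.2.1). The deposited table gives, per gene and library, a raw count and an FPKM, beside the gene length in bases. Recomputing FPKM from count, length and column total returned the deposited value for every gene ID (relative tolerance 1e-06). The counting program, its annotation and its strand setting were not given in the sources used here.

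Gene IDs were summed by symbol (23 symbols had several), giving 21839 genes. Differences are of log2(FPKM + 1), computed here from the deposited FPKM, and a gene was counted at a difference of at least 1. With 1 library per condition no test was made. Ratios of counts, scaled to library totals, have exact binomial 95% intervals for counting error, and a count of 0 allows up to 3 reads. The 4 comparisons were coculture against alone without and with QNZ, and QNZ against none alone and in coculture, which share libraries.

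The members and lists were chosen with earlier results of these data known. The genes named with 4 values were all Clk genes, Rsrp1, Ogt, Tra2a, Tra2b, the SR proteins and hnRNPs counted or with the largest rise or fall of the family in a comparison, and the 3 hnRNPs with the highest mean FPKM, 24 in all. From each other list the 2 largest counted rises and falls in coculture without QNZ were named. Oga was a list of its own, and other genes were named after their values were seen.

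Alternatives were a pseudocount of 0.1, median-of-ratios scaling, TPM, removal of the trend with length (lowess, span 0.3), a mean FPKM of at least 5, the highest gene ID per symbol, and a difference of at least 1.5 times. Removal of length and GC trends in 3 rounds was added after seeing the data. Exons, transcript types and overlaps came from GENCODE M21, which holds 21845 of 21862 gene IDs and all 39 members at the same positions. Promoters came from RefSeq (GRCm38.p6), where 36 members matched by symbol. The steps were tested on simulated data. Software was matplotlib 3.10.9, statsmodels 0.14.6, scipy 1.17.1, pandas 2.3.3 and numpy 2.4.6 under Python 3.11.15.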

Additional observations from a re-analysis of the deposited data

Results flagged for a closer look

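For 3 genes a pair of differences had opposite signs, each beyond its counting interval, and the difference between them was not tested. The opposite signs depend on the scaling. Srsf5 differed by 0.149 with QNZ in MEFs alone and by -0.15 in coculture, a change of -0.299, and after median-of-ratios scaling both values were negative, at -0.139 and -0.181. Hnrnpab differed by -0.127 with QNZ in MEFs alone and by 0.126 in coculture, a change of 0.253, and as TPM the values were -0.0048 and 0.119. Hnrnpk, an hnRNP that binds runs of C, was higher by 0.139 in coculture without QNZ and lower with QNZ, at -0.0493, a change of -0.188, with both values negative after median-of-ratios scaling, at -0.386 and -0.315, and both positive as TPM, at 0.656 and 0.336. All these values are well under the size counted, and with 1 library per condition the spread between cultures is unknown.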

How the results depend on the processing

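The scaling moved the whole table. The median coculture difference without QNZ over the 10610 expressed genes was 0.31 as deposited, -0.13 after median-of-ratios scaling and 0.85 as TPM. Rsrp1, Ogt, Clk1, Clk2, Clk4 and Srsf11 were counted as higher in coculture without QNZ under every scaling and both trend removals. Of 23 counted differences of named genes, 23 stayed counted with a pseudocount of 0.1, 22 as TPM, 17 with the length trend removed, 15 after median-of-ratios scaling and 13 with length and GC trends removed, and 0 changed sign.

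In coculture without QNZ, the 11 regulators higher became 7 after median-of-ratios scaling, 18 as TPM and 7 with length and GC trends removed. Of all genes 13.3%, 44.9% and 9.95% were higher in these settings. The 1 lower became 5 after median-of-ratios scaling, 0 as TPM, 3 with the length trend removed, 7 with both trends removed and 4 at a size of 1.5 times. Of all genes 21.8% were lower after median-of-ratios scaling, 5.87% as TPM, 11.1% with the length trend removed and 11.2% with both removed. The median of 0.28 became -0.211, 0.801, -0.222 and -0.325 with median-of-ratios scaling, TPM, the length trend removed and both trends removed. With QNZ, the 11 higher became 7 after median-of-ratios scaling, 7 with the length trend removed and 6 with both removed. The 0 lower became 3, 1 and 2 in that order, and 4 at a size of 1.5 times. Of the 10610 expressed genes, 984, 885 and 739 were higher and 1489, 673 and 708 lower in the same order. The median of 0.305 became 0.045 with median-of-ratios scaling, 0.697 as TPM, -0.119 with the length trend removed and -0.166 with both removed. For QNZ in MEFs alone, the 0 higher became 1 with a pseudocount of 0.1, 1 as TPM and 1 at a size of 1.5 times. Of the 10610 genes, 525 were higher with that pseudocount and 539 as TPM. The median of the regulators, 0.0768, became -0.19, 0.202, -0.198 and -0.215 with median-of-ratios scaling, TPM, the length trend removed and both removed. For QNZ in coculture the counts stayed at 0 and the median within 0.1 of its value. The cause of these shifts was not tested. In coculture without QNZ the sign of the regulators' median depends on the scaling. No paired analysis was possible because each condition has 1 library. Depth limits Srsf12, with 9 reads in MEFs alone, and the low values of Clk1 and Clk4.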
